A study of Mus musculus with 11 samples.

Results

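Integrin subunits were followed in mouse microglia, the resident macrophages of the brain. The set comprised 10 genes, the alpha subunits Itga4, Itga6, Itga9, Itgal and Itgav and the beta subunits Itgb1, Itgb2, Itgb3, Itgb5 and Itgb7. Members were found by matching the RefSeq accession of each probe to a gene symbol. The set itself was chosen with earlier results of these data known. Of the 10 genes, 9 had a matched probe and all 9 were tested, among 19555 genes tested in the whole series. Itgb3 is not analysed here.

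RNA was measured on 11 single-colour arrays. All mice were C57BL/6N. Microglia of adult female mice (A_FACS, 2 arrays) and of newborn mice of both sexes (NB_FACS, 3 arrays) were sorted by flow cytometry and used without culture. Newborn microglia from mixed flask cultures fed with L-929 conditioned medium were shaken off, which the methods place weeks after isolation. They were then kept in medium with serum for a day without cytokines (NB_Control, 3 arrays) or with 3 human cytokines (NB_Stim, 3 arrays). The cytokines were CX3CL1, IL-34 and TGF-β1, each given at 100 ng/mL. Sorting used CX3CR1 and CD45, and the sorted cells were handled without transcription inhibitors. Culture, its serum, the time in flasks and the isolation method cannot be told apart, nor can age and sex. The study's methods define sample numbers as independent biological replicates, while the labels do not say which animals or cultures lie behind each array, and p-values measure the spread between these arrays.

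An integrin is a pair of 1 alpha and 1 beta subunit that spans the cell membrane, binds matrix or a ligand on another cell, and links it to the actin skeleton. The beta chain Itgb2 (CD18) is found on leukocytes and pairs with Itgal to form LFA-1 and with Itgam to form CR3. Itgb1 pairs with many alpha chains, among them Itga4, Itga6, Itga9 and Itgav, and receives fibronectin, laminin, tenascin or VCAM1. Itgav with Itgb5 is a vitronectin receptor that macrophages use to take up apoptotic cells, and integrins that contain Itgav also release active TGF-β from its latent complex.

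Levels rest on short probes, and the first 30 bases of those behind the main results are shown, because the gene values stand or fall with them. Itgb5, Itgb2, Itgav and Itgb1 were each measured by 1 probe, Itga9 by 2 and Itgal by 3. The probes shown were 46 to 58 bases long, and the letters are those of the scanner files.
Itgb5, probe of NM_001145884.1: acaagaaggtatccggaagagtctgtgtgt
Itgb2, probe of NM_008404.4: ttatatcaagtctgccagggtttccaggga
Itgav, probe of NM_008402.3: gagtctctcctgaaatctgtcatttgctaa
Itgb1, probe of NM_010578.2: gcacatgcctttcctacatgcttgctctgt
Itga9, probe of XM_006511918.1: ccttcctcactgtgtcttgtgaattcatgt
Itga9, probe of NM_133721.2: gaccgaagatcagggaccttaataaagatc
Itgal, probe of NM_001253874.1: cctgtccttgcctctgtccaccaagttata
Itgal, probe of NM_008400.3: gtggatgtggtcactgagctgtcgttctcc
Itgal, probe of XM_006507393.1: agggtgtagaaagaccacagccattccagc

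Values below are log2 intensities after quantile normalisation, averaged over the probes of a gene, in the order of replicates 1, 2 and 3. The threshold for a call was an adjusted p of 0.05 in limma's moderated two-sided test, with Benjamini-Hochberg adjustment over all 19555 genes. Levels are compared between groups and never between genes, since probes differ in brightness. In the F test over the 4 groups 6 of the 9 members were called, Itgb5, Itgb1, Itga9, Itgav, Itgb2 and Itgal, against 48.8% of all genes. Itgb7 (adjusted p 0.0563), Itga6 (0.258) and Itga4 (0.324) were not.

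Replicate 3 of each newborn group lay on a second slide, which was also a separate scan, and the other 8 arrays lay on slide 1. On each array 66.8% to 80.5% of probes were well above background, and no spot was saturated. Microglia markers had a mean log2 level of 14.21 to 14.30 in A_FACS, 13.26 to 13.41 in NB_FACS, 11.35 to 11.89 in NB_Control and 12.81 to 12.86 in NB_Stim. When each slide was quantile normalised apart and no slide term was fitted, a choice made after seeing the data, 0 members were called for culture, 0 for the cytokines, 1 for stimulated culture and 0 for age (limma, 1, 3, 4 and 1 at an unadjusted p under 0.05). With a slide term in that same fit the counts were 5, 4, 6 and 5.

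**Figure D1:**
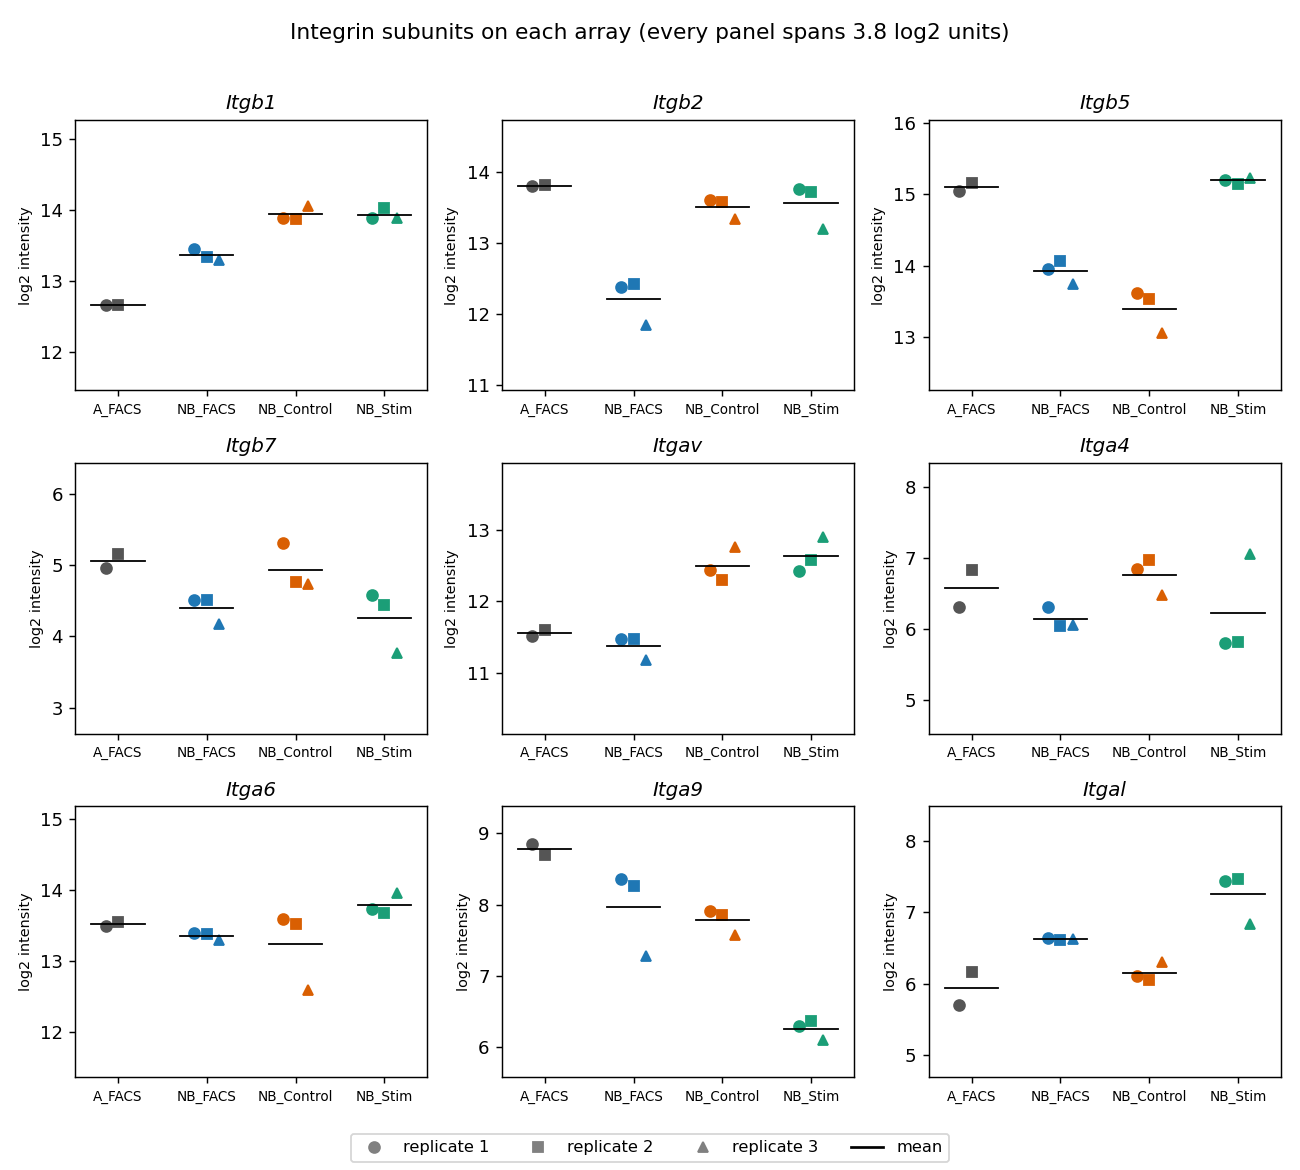
Log2 quantile-normalised intensity of the 9 measured integrin subunits (y axis, log2 scale) in the 4 groups (x axis), with 1 symbol per array shaped by replicate number and a line at the group mean. Itgb5 is high in A_FACS and NB_Stim, Itgb2 is low in NB_FACS, and Itga9 is low in NB_Stim, where it lies at 6.10 to 6.36.

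The first comparison asked how newborn microglia in culture differ from sorted ones. The leukocyte beta chain Itgb2, the vitronectin receptor chain Itgav and the common beta chain Itgb1 were higher in NB_Control than in NB_FACS, by 2.44-fold, 2.19-fold and 1.49-fold, and Itgb5 was 1.43-fold lower. Thus 4 of 9 members were called, where 29.7% of all genes were, with 3 higher (15.8% of all genes) and 1 lower (13.9% of all genes). The median log2 difference was 0.53 over the members and 0.0864 over all genes.

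Itgb2 lay at 12.39, 12.42 and 11.84 in NB_FACS and at 13.60, 13.57 and 13.33 in NB_Control. All 3 cultured arrays were above all 3 sorted ones, and the log2 difference was 1.29 (SE 0.20, adjusted p 0.00103). Of its alpha partners, Itgal had a log2 difference of -0.48 (adjusted p 0.1) and Itgam, the alpha chain of CR3, of 0.06 (adjusted p 0.913). Neither was called, nor was Itgax (-0.52, adjusted p 0.301). The value of Itgal came largely from its dimmest probe (-1.045), which was well above background on 1 of 3 arrays in each group. Its brighter probes differed by -0.05 and -0.33. Itgad was called lower (-1.58, adjusted p 0.0273), although its 2 probes disagreed.

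Itgav lay at 11.47, 11.47 and 11.17 in NB_FACS and at 12.44, 12.30 and 12.76 in NB_Control. The groups were apart, with a log2 difference of 1.13 (SE 0.18, adjusted p 0.000908), larger on slide 2 (1.59) than between the arrays of replicate 1 (0.96) and replicate 2 (0.83). Itgb1 lay at 13.45, 13.34 and 13.30 in NB_FACS and at 13.88, 13.88 and 14.06 in NB_Control. It was higher on every cultured array, with a log2 difference of 0.58 (SE 0.12, adjusted p 0.00426).

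Itgb5 lay at 13.95, 14.06 and 13.74 in NB_FACS and at 13.61, 13.52 and 13.05 in NB_Control. The lowest sorted array was 0.13 above the highest cultured one, and the log2 difference was -0.52 (SE 0.16, adjusted p 0.038). This call was lost in a fit of the groups compared alone (adjusted p 0.0913), without NB_FACS replicate 1 (adjusted p 0.102) or 2 (0.132), without NB_Control replicate 2 (0.0595) or 3 (0.104), and without NB_Stim replicate 1 (0.0592) or 2 (0.0555). The log2 difference was -0.35 without NB_Control replicate 3.

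The other members showed no called difference. Itga4, which pairs with Itgb1 or Itgb7 to bind VCAM1, lay at 6.31, 6.05 and 6.05 in NB_FACS and at 6.84, 6.97 and 6.47 in NB_Control (log2 difference 0.63, 95% interval -0.09 to 1.34). Itgb7, a beta chain of lymphocyte homing receptors, had a log2 difference of 0.53 (adjusted p 0.131), which was called with the replicate number as a block (adjusted p 0.0397) or the slide as a block (0.0312) and turned to -0.34 without a filter on dim probes, when a second probe entered. Itga6, a laminin receptor chain, differed by -0.12 (95% interval -0.66 to 0.41) and Itga9, a receptor chain for tenascin and osteopontin, by -0.18 (-0.77 to 0.40).

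Markers of other cells moved in this comparison too. The 9 fibroblast and mural markers had a mean log2 level of 6.41 to 6.71 in NB_FACS and 9.10 to 9.57 in NB_Control, and 5 of the 9 were called higher and 0 lower. The 7 endothelial markers lay at 8.23 to 8.66 in NB_FACS and at 4.89 to 5.69 in NB_Control, with 5 called lower, and 4 of 5 erythroid markers were called lower. Itgav and Itgb1 are also made by such cells, and the part of these cells in the differences was not tested. Fewer cells of a type and less RNA per cell cannot be told apart in bulk samples.

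**Figure D2:**
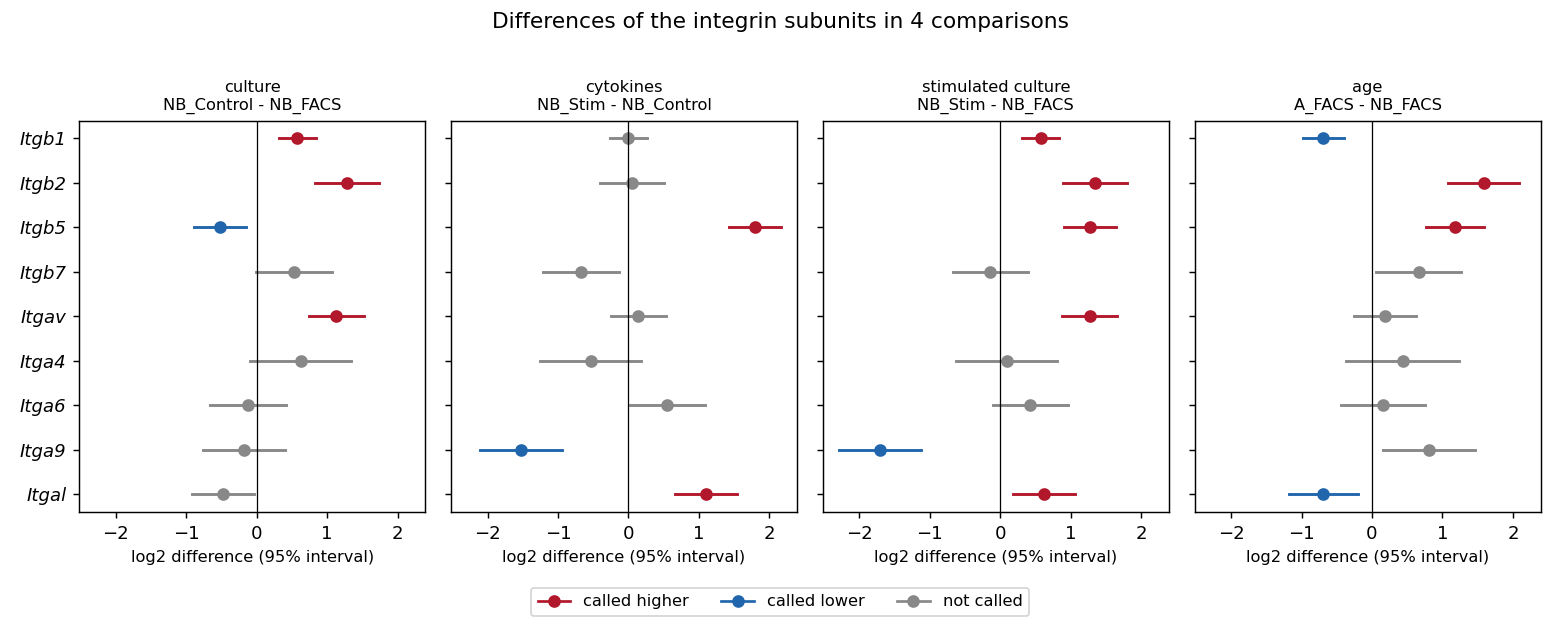
Log2 difference (x axis) of each of the 9 integrin subunits in the 4 comparisons, with points at the estimate and lines for the 95% interval of the limma fit, coloured by call. Itgb5 is 1.80 higher with the cytokines, Itga9 is 1.53 lower, and the intervals of Itgb1 and Itgb2 include 0 there.

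Cultured cells with and without cytokines were compared next. Itgb5 rose 3.48-fold in NB_Stim over NB_Control, Itgal rose 2.14-fold and Itga9 fell 2.89-fold. With 3 of 9 members called, against 3.41% of all genes, 2 were higher (1.40% of all genes) and 1 lower (2.00% of all genes). The median log2 difference was 0.0556 over the members and -0.000836 over all genes.

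Itgb5 lay at 13.61, 13.52 and 13.05 in NB_Control and at 15.20, 15.15 and 15.24 in NB_Stim. Every stimulated array was above every control array, with a log2 difference of 1.80 (SE 0.16, 95% interval 1.43 to 2.17, adjusted p 0.000428). Its rise was the 74th largest of 19555 genes. The deposited intensities before normalisation were 12903, 14407 and 15838 in NB_Control and 32878, 26765 and 57708 in NB_Stim. Between arrays of the same replicate number the log2 difference was 1.59, 1.63 and 2.18, and without single arrays it was 1.63 to 1.91.

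Itga9 lay at 7.92, 7.86 and 7.58 in NB_Control and at 6.30, 6.36 and 6.10 in NB_Stim, so that the groups were more than a log2 unit apart. The log2 difference was -1.53 (SE 0.26, adjusted p 0.0119). It was -1.62, -1.5 and -1.47 between arrays of replicates 1, 2 and 3. Both of its probes had a lower mean in NB_Stim, with 10.04 in NB_Control against 8.29 for that of XM_006511918.1 and 5.53 against 4.22 for that of NM_133721.2. In a limma fit of single probes the first of these was called (adjusted p 0.00348) and the second was not (0.273). The call of the gene was lost without NB_Control replicate 1 (adjusted p 0.0554) or 2 (0.0537).

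Itgal lay at 6.10, 6.04 and 6.31 in NB_Control and at 7.45, 7.48 and 6.84 in NB_Stim. The groups did not overlap, and the log2 difference was 1.1 (SE 0.20, adjusted p 0.0148). It was 1.34 and 1.43 between the arrays of slide 1 and 0.53 on slide 2. All 3 probes had a higher mean in NB_Stim, 8.57 against 7.60, 8.74 against 7.85 and 4.45 against 3.00. The dimmest of them was well above background on only 1 of 3 NB_Control arrays. It entered the gene value through NB_Stim alone, so its higher level there is no independent support. This call was lost with the brightest probe alone (adjusted p 0.0714), in a fit of the groups compared alone (0.0581), without NB_Control replicate 1 (0.0642) or 2 (0.0695) and without NB_Stim replicate 1 (0.0738) or 2 (0.0723). Without NB_Control replicate 1 or without NB_Control replicate 2 the count of members called was 1, that of Itgb5.

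Itgb2, the beta partner of Itgal, showed no called difference with the cytokines, at 13.60, 13.57 and 13.33 against 13.76, 13.72 and 13.20 (log2 difference 0.06, 95% interval -0.40 to 0.51). Itgav, the alpha partner of Itgb5, differed by 0.14 (95% interval -0.25 to 0.53), and the interval for Itgb1 was -0.27 to 0.26. The upper bound for Itgav was therefore below the lower bound of 1.43 for Itgb5.

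Itga6 lay at 13.59, 13.52 and 12.59 in NB_Control and at 13.73, 13.67 and 13.95 in NB_Stim (log2 difference 0.55, adjusted p 0.312). Most of that difference came from slide 2, where it was 1.37, against 0.14 and 0.15 on slide 1. Itga4 changed sign between slides, with -1.03 and -1.16 on slide 1 and 0.58 on slide 2 (adjusted p 0.511). Itgb7 was lower in NB_Stim in each pair of arrays, by -0.72, -0.31 and -0.98, and was not called (adjusted p 0.205), but was called with the slide as a block (adjusted p 0.044).

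Fibroblast and mural markers lay at 8.69 to 9.60 in NB_Stim, a range that overlapped that of NB_Control, and 1 of 9 was called lower. The 6 border macrophage markers lay at 7.83 to 8.94 in NB_Control and 5.82 to 6.44 in NB_Stim. By limma 1 was called lower and 0 higher (4 at an unadjusted p under 0.05). The log2 differences of the 6 ran from -5.24 to -0.211, with a median of -1.65. Lymphocyte markers, of interest because lymphocytes also carry Itgal, lay at 7.08 to 7.38 in NB_Control and 7.16 to 7.39 in NB_Stim, and 0 of the 5 tested were called by limma (0 at an unadjusted p under 0.05). The 4 monocyte and neutrophil markers tested lay at 6.80 to 7.14 in NB_Control and 6.51 to 7.11 in NB_Stim. Of these 1 was called lower and 0 higher, with log2 differences from -3.12 to 1.52. The part of border macrophages in the fall of Itga9 was not tested, nor was that of other cells in the rise of Itgal.

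**Figure D3:**
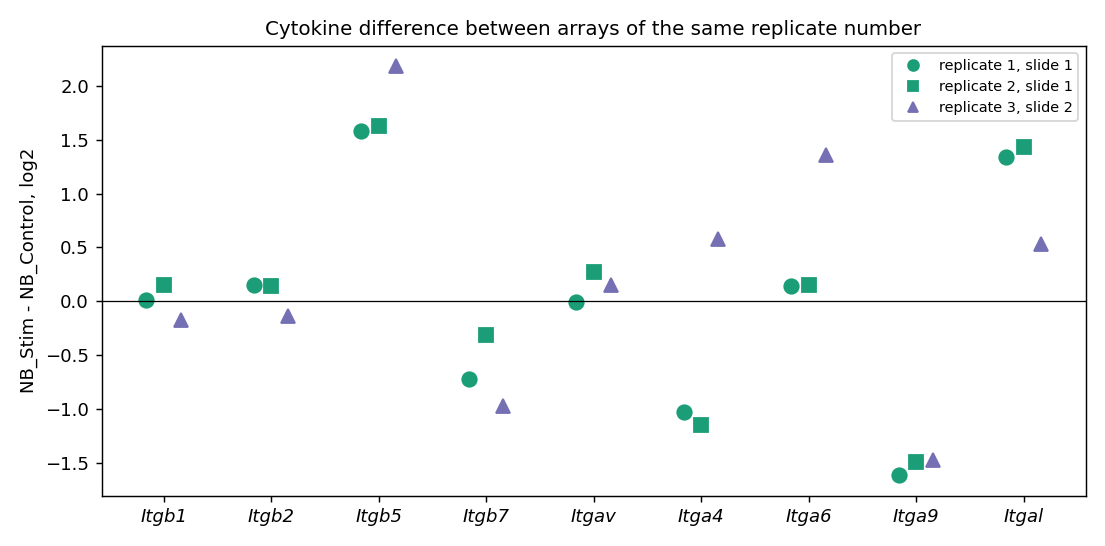
Log2 difference NB_Stim minus NB_Control (y axis) between arrays of the same replicate number for the 9 integrin subunits (x axis), coloured by slide. Itgb5, Itgal, Itga6, Itga9 and Itgb7 keep their sign in all 3 pairs, whereas Itga4 is -1.03, -1.16 and 0.58.

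**Figure D4:**
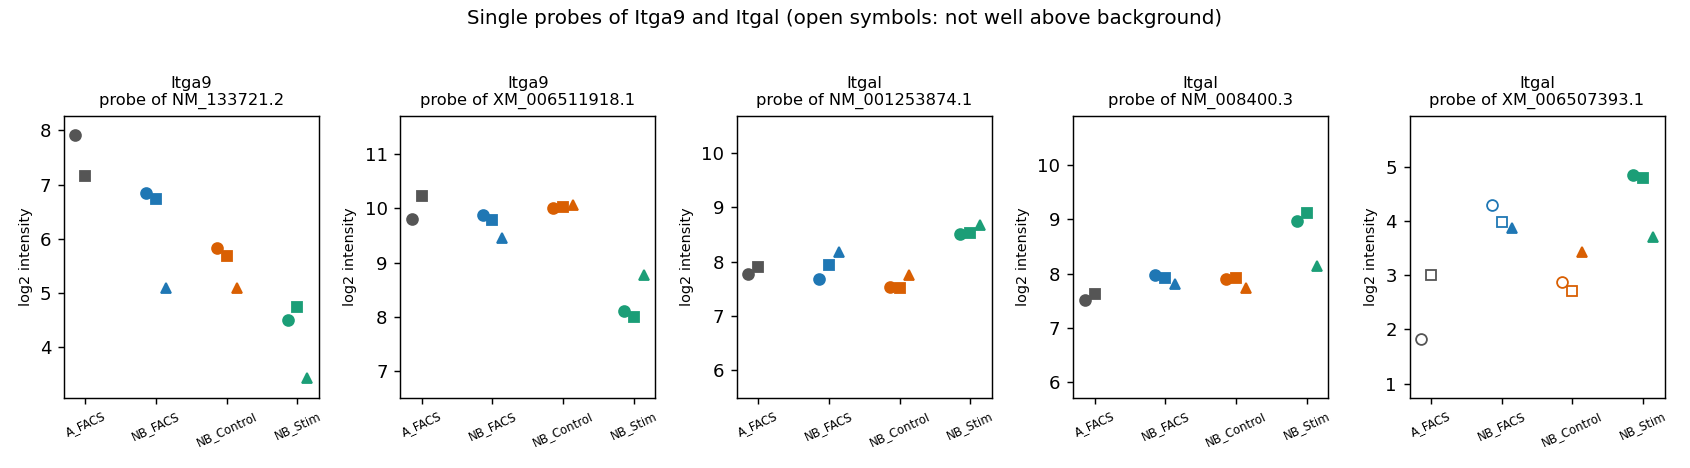
Log2 quantile-normalised intensity (y axis) of the 2 probes of Itga9 and the 3 probes of Itgal on the 11 arrays by group (x axis), where open symbols mark arrays on which the probe was not well above background. The probe of XM_006507393.1 was well above background on 5 of 11 arrays.

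The promoters of the most and the least responsive beta chain are shown next to these values, because the cytokine mix contains TGF-β1, which acts through SMAD factors. RefSeq promoter sequence on GRCm38.p6 was matched for 6 of the 10 members, and the 250 bases before the start are printed for Itgb5 (chr16:33829415-33829664, plus strand) and Itgb1 (chr8:128685404-128685653, plus strand). Capitals mark CAGAC, the SMAD box, GAGGAA, the core of PU.1 sites, and GGGCGG, the Sp1 box, on either strand.
Itgb5: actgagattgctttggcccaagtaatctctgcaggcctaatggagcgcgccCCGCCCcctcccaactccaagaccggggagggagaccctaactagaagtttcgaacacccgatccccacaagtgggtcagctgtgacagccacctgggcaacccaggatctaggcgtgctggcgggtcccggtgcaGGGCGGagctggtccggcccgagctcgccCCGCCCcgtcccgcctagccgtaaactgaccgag
Itgb1: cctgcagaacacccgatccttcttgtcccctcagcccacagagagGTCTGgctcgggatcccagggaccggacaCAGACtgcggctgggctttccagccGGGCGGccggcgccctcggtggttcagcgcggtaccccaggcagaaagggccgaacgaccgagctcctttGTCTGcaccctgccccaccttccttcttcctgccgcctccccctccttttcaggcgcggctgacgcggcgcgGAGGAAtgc
In this window Itgb5 held 0 matches to the SMAD box, 0 to the PU.1 core and 3 to the Sp1 box, and Itgb1 held 3, 1 and 1. Of 32851 promoter windows of the same length, 42.2% held the SMAD box, 23.3% the PU.1 core and 32.7% the Sp1 box. Such matches are common and describe the letters only.

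The third comparison set stimulated culture against sorted newborn cells. It shares NB_Stim with the second comparison and NB_FACS with the first, so its values are given side by side with theirs. NB_Stim was higher than NB_FACS in Itgb2 (2.53-fold), Itgb5 (2.43-fold), Itgav (2.41-fold), Itgal (1.54-fold) and Itgb1 (1.49-fold) and 3.28-fold lower in Itga9. Of the 9 members 6 were called (31.1% of all genes), 5 higher (16.0% of all genes) and 1 lower (15.1% of all genes), and the median log2 difference was 0.57 over the members and 0.11 over all genes.

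Itgb5, at 13.95, 14.06 and 13.74 in NB_FACS, was higher on every stimulated array, by a log2 difference of 1.28 (SE 0.16, adjusted p 0.000301). Its order over the groups was NB_Stim (15.15 to 15.24), A_FACS (15.04 to 15.16), NB_FACS (13.74 to 14.06) and NB_Control (13.05 to 13.61), in which NB_Stim and A_FACS overlapped. Itga9 was lower on every stimulated array, by -1.71 (SE 0.26, adjusted p 0.000811). The order of its mean over probes was A_FACS, then NB_FACS and NB_Control, which overlapped, and then NB_Stim. Both probes were lowest in NB_Stim, but they differed in the rest. At that of XM_006511918.1 A_FACS (9.80 and 10.23) overlapped NB_FACS (9.46 to 9.88) and NB_Control (10.01 to 10.07).

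Itgb2 (log2 difference 1.34, adjusted p 0.000804), Itgav (1.27, adjusted p 0.000466) and Itgb1 (0.57, adjusted p 0.00438) were each at a level in NB_Stim that overlapped NB_Control and lay above all NB_FACS arrays. The order of Itgb2 was A_FACS (13.79 to 13.81), NB_Stim and NB_Control, which overlapped, and NB_FACS, while that of Itgav was NB_Stim and NB_Control, which overlapped, then A_FACS (11.51 to 11.60) and NB_FACS (11.17 to 11.47). Itgal, at 6.65, 6.61 and 6.62 in NB_FACS, was higher in NB_Stim by 0.63 (SE 0.20, adjusted p 0.0355). Its call was lost when any 1 of 7 arrays was left out, namely each NB_FACS array, NB_Control replicate 1 or 2 and NB_Stim replicate 1 or 2 (adjusted p 0.0516 to 0.127), and on slide 2 the difference was 0.21. Over the 4 groups the mean over probes of Itgal stood in the order NB_Stim, NB_FACS, and then NB_Control and A_FACS, which overlapped. The gap between NB_FACS and NB_Control rested on the dim probe of XM_006507393.1, well above background on 1 of 3 arrays in each. At both brighter probes NB_FACS overlapped NB_Control. At that of NM_001253874.1 NB_FACS also overlapped A_FACS, while at that of NM_008400.3 A_FACS lay below NB_FACS. Itga4 (0.09), Itga6 (0.43) and Itgb7 (-0.14) were not called. Of the fibroblast and mural markers 7 of 9 were called higher here. Border macrophage markers lay at 8.36 to 9.67 in NB_FACS and 5.82 to 6.44 in NB_Stim, with 4 of 6 called lower and 1 higher. The largest log2 difference among them was 5.03. Of the endothelial markers 4 of 7 were called lower and 1 higher, and 4 of 5 erythroid markers were called lower. The part of these cells in the called differences, the fall of Itga9 among them, was not tested.

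The fourth comparison set adult against newborn sorted cells. Itgb2 was 3.00-fold and Itgb5 2.27-fold higher in A_FACS, while Itgb1 and Itgal were each 1.62-fold lower. These 4 of 9 calls compare with 22.7% of all genes, the 2 higher with 9.76% and the 2 lower with 12.9%. The median log2 difference was 0.44 over the members and -0.01 over all genes. Both adult arrays were on slide 1.

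Itgb2 lay at 13.79 and 13.81 in A_FACS, above the NB_FACS arrays at 12.39, 12.42 and 11.84, with a log2 difference of 1.58 (SE 0.23, adjusted p 0.00109). Itgam, its partner in CR3, was called higher too (log2 difference 1.09, adjusted p 0.0421), with 12.06 ± 0.10 (SD, n = 2) against 10.97 ± 0.11 (SD, n = 3). Itgax, the partner in CR4, was not (0.26, adjusted p 0.68).

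Itgb5 lay at 15.04 and 15.16 in A_FACS and at 13.95, 14.06 and 13.74 in NB_FACS, without overlap (log2 difference 1.18, SE 0.18, adjusted p 0.00167). Itgb1 lay at 12.67 and 12.67 in A_FACS and at 13.45, 13.34 and 13.30 in NB_FACS, and A_FACS was the lowest of the 4 groups, with a log2 difference of -0.69 (SE 0.13, adjusted p 0.00464).

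Itgal lay at 5.70 and 6.17 in A_FACS and at 6.65, 6.61 and 6.62 in NB_FACS (log2 difference -0.69, adjusted p 0.0475). The call was lost in 19 of 27 alternatives, among them the leaving out of any of 9 single arrays (adjusted p 0.0526 to 0.313), and the log2 difference was -0.46 without A_FACS replicate 1. The probe of XM_006507393.1, which was not well above background on either adult array, had a mean of 2.41 against 4.05. The 2 brighter probes differed less, with 7.57 against 7.91 and 7.83 against 7.93, and over probes well above background on all arrays the difference was -0.22.

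Itga9 lay at 8.86 and 8.70 in A_FACS and at 8.36, 8.27 and 7.28 in NB_FACS, a log2 difference of 0.81 that was not called (adjusted p 0.0748). With the slide as a block it was 0.63 and called (adjusted p 0.0358). In a limma fit of single probes the probe of XM_006511918.1 differed by 0.30 (adjusted p 0.457). That of NM_133721.2 differed by 1.315 (adjusted p 0.137). Itgb7 (0.66, adjusted p 0.108, and -0.36 without the filter on dim probes), Itga4 (0.44, adjusted p 0.431), Itgav (0.18, adjusted p 0.566) and Itga6 (0.16, adjusted p 0.723) were not called either. Border macrophage markers were lower in A_FACS (4.35 to 6.02 against 8.36 to 9.67, 5 of 6 called), fibroblast and mural markers lay at 5.18 to 6.10 against 6.41 to 6.71 (2 called higher and 4 lower of 9), and 4 of 5 erythroid markers were called lower. Their part in the differences of Itgb1 and Itgal was not tested.

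The other integrin subunits were read as a list of 17 genes, of which 14 were matched and tested. For culture 4 were called higher and 2 lower, for the cytokines 0 and 1, for stimulated culture 3 and 2, and for age 1 and 0. The shares over all genes, higher and lower, were 15.8% and 13.9% for culture and 1.40% and 2.00% for the cytokines. They were 16.0% and 15.1% for stimulated culture and 9.76% and 12.9% for age. Itga5, the alpha chain of the fibronectin receptor, fell by 2.45 on the log2 scale in NB_Control (11.85 ± 0.44 against 9.41 ± 0.05, SD, n = 3 each, adjusted p 0.000145) and was also lower in NB_Stim than in NB_FACS, with a log2 difference of -1.75 (adjusted p 0.00109). Itga8, which pairs with Itgb1, was 2.18 higher in NB_Control (adjusted p 0.000116) and differed by -1.52 with the cytokines (adjusted p 0.00803). Its probe was well above background on only 1 of 3 arrays in NB_FACS and in NB_Stim. It entered the test through NB_Control alone, the group where it is high, so these calls are not independent of that filter. Itga7, a laminin receptor chain, was higher in NB_Control by 2.07 (adjusted p 0.0123) and in NB_Stim by 3.48 (adjusted p 0.000684), and Itga3, another one, was higher in NB_Stim by 2.06 (adjusted p 0.00133). Itgad, a further partner of Itgb2, was lower in NB_Control (-1.58, adjusted p 0.0273) and in NB_Stim (-1.44, adjusted p 0.0392), although its 2 probes disagreed, with -3.46 and 0.31 for culture.

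**Figure D5:**
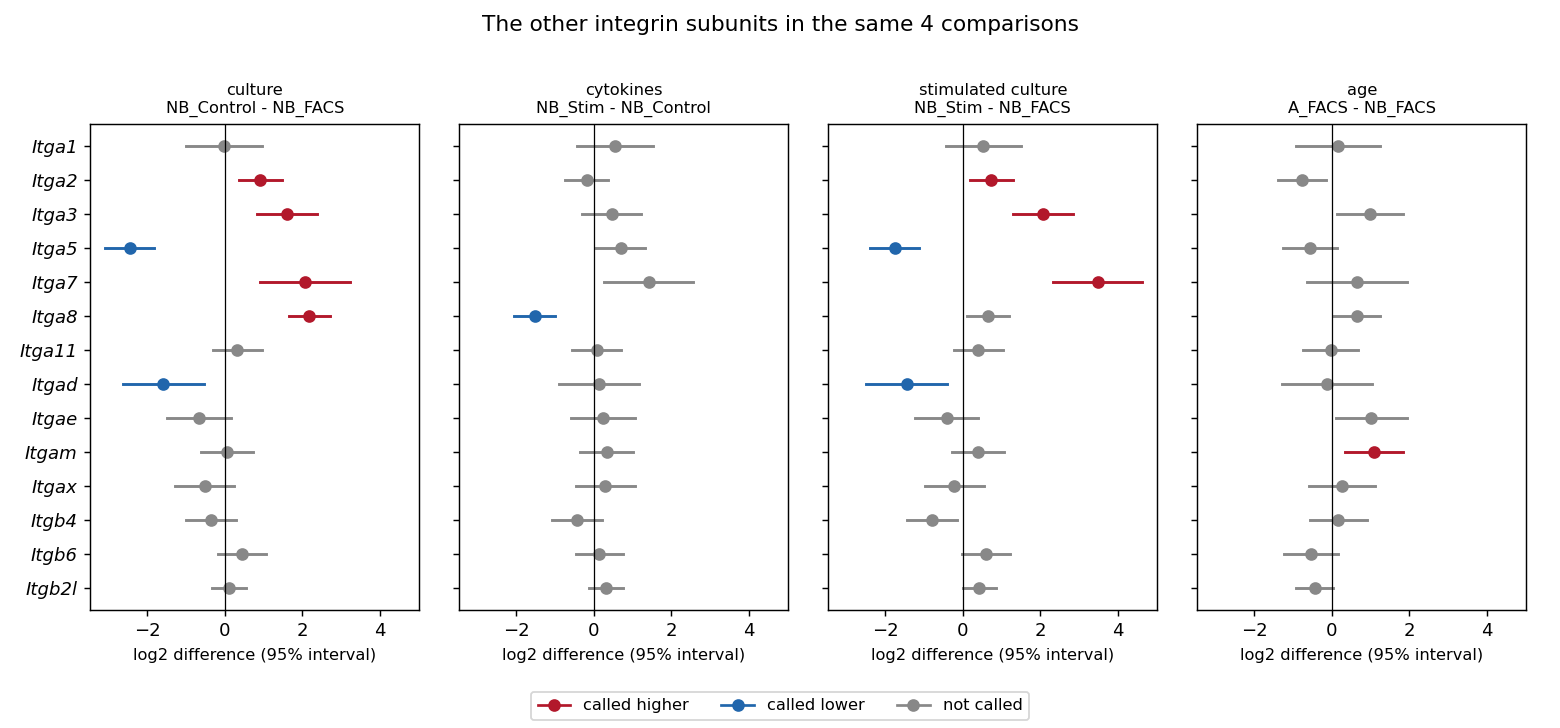
Log2 difference (x axis) of the 14 other integrin subunits tested, in the same 4 comparisons, with 95% intervals of the limma fit and colours by call. Itga5 falls in both cultures, by -2.45 and -1.75, and Itga8 is the single subunit called with the cytokines. The probe of Itga8 entered the test through NB_Control alone, where it is high.

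Ligands of integrins were read as a list of 26 genes, of which 21 were tested. Of all genes 15.8% were called higher and 13.9% lower for culture, and 1.40% and 2.00% for the cytokines. For stimulated culture the shares were 16.0% and 15.1%. In NB_Control 9 were called higher and 5 lower, with the largest rises in Col1a1 (log2 difference 5.23) and Tnc (4.74), a collagen chain and tenascin C, and the largest falls in Vtn (-3.31), vitronectin, and Icam1 (-3.20), a ligand of LFA-1. Col1a1 is also a fibroblast gene. With the cytokines 3 were higher and 1 lower. F11r rose by 2.57 (adjusted p 0.00437) and Jam2 by 1.63 (adjusted p 0.031), both junctional adhesion molecules. Edil3 differed by -2.03 (adjusted p 0.0303) and was well above background on 1 of 3 NB_Stim arrays. It entered the test through NB_Control alone, the group where it is high, so this call is not independent of that filter. In NB_Stim against NB_FACS 7 were higher and 3 lower, led by Tnc (4.70), Col1a1 (4.54), Vtn (-3.39) and Icam1 (-3.31).

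In adult cells 3 ligands were called higher and 8 lower, where 9.76% and 12.9% of all genes were. Spp1, osteopontin, fell from 14.21 ± 0.62 (SD, n = 3) to 7.73 ± 2.71 (SD, n = 2), a log2 difference of -6.48 (adjusted p 0.00065). Tnc was not well above background on either adult array and was at least 21.6-fold lower there (adjusted p 2.04e-05, measured means 1.68 and 7.67). Jam2 (1.97) and F11r (1.81) were higher.

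Genes that activate integrins or tie them to the skeleton were read as a list of 28, of which 23 were tested. Of all genes 15.8% were called higher and 13.9% lower for culture, and 1.40% and 2.00% for the cytokines. In NB_Control 6 were higher and 7 lower. Parvg, a parvin of leukocytes, fell by 3.77 on the log2 scale, from 11.87 ± 0.06 to 8.10 ± 0.42 (SD, n = 3 each, adjusted p 1.74e-06), and Cd9, a tetraspanin, had a difference of -1.27 (adjusted p 0.000614). Fermt2, kindlin-2, was higher by 1.91 (adjusted p 0.000737) and Vcl, vinculin, by 1.73 (adjusted p 0.000317). With the cytokines 2 were higher and 1 lower, namely Parvg (1.59, adjusted p 0.00235), Cd9 (1.29, adjusted p 0.0047) and Fermt3, the kindlin of blood cells (-0.70, adjusted p 0.0286).

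In stimulated culture against NB_FACS 5 were higher and 6 lower, with Fermt2 at 2.37, Vcl at 1.52, Parvg at -2.18 and Rap1b, a small GTPase that activates integrins, at -1.48. In adult cells 3 were higher, led by Lims1 (0.68) and Tln2, talin-2 (0.66), and 2 lower, Flna, filamin A (-1.19), and Itgb1bp1, which binds the tail of Itgb1 (-0.62). The shares over all genes, higher and lower, were 16.0% and 15.1% for stimulated culture and 9.76% and 12.9% for age.

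Latent TGF-β and its handling were read as a list of 9 genes, of which 7 were tested. For culture 2 were higher and 1 lower, for the cytokines 0 and 1, for stimulated culture 3 and 1, and for age 2 and 0. Of all genes 15.8% and 13.9% were called higher and lower for culture, and 1.40% and 2.00% for the cytokines. The shares were 16.0% and 15.1% for stimulated culture and 9.76% and 12.9% for age. Nrros, which holds latent TGF-β on microglia, was lower with the cytokines (13.89 ± 0.59 against 12.37 ± 0.17, SD, n = 3 each, log2 difference -1.52, adjusted p 0.0102). It was lower than in NB_FACS too (-1.36, adjusted p 0.00247). Ltbp3, a latent TGF-β binding protein, was higher in NB_Control (2.38) and NB_Stim (3.01). Ltbp1 was higher there as well (3.26 and 3.48), from a level well above background on 1 of 3 NB_FACS arrays, and Ltbp4 was lower in NB_Control (-0.81). In adult cells Ltbp4 (1.75) and Ltbp1 (1.20) were higher. Ltbp1 was dim in both groups, with means of 3.25 in A_FACS and 2.05 in NB_FACS. No array of these groups had all its probes well above background.

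The genes most like each member in pattern were named by Pearson's r over the 11 arrays, as a description, since group differences and shared slides enter every r. For Itgb5 they were 2310069G16Rik (r 0.986), Tent5c (0.985) and Cdk19 (0.972), and for Itgb1 they were Palld (0.992), Psmd2 (0.99) and Mir100hg (0.987). Itgb2 was most like Rere (0.987), Afmid (0.986) and Rgl3 (0.983), and Itgav most like Cggbp1 (0.984), Nampt (0.978) and Fth1 (0.976). Next to Itga9 stood Slc16a7 (0.965), Grb2 (0.962) and Wdfy2 (0.96), and next to Itgal B3gnt7 (0.975), Adam10 (0.929) and Gm17660 (0.92). The members without a called difference had looser matches, Itga6 with Olfr1256 (0.898), Vstm4 (0.882) and Gfpt1 (0.874), Itgb7 with Ccr1l1 (0.907), Fam161a (0.899) and Cul9 (0.899), and Itga4 with Clca3a2 (0.818), Eid2 (0.813) and Ifi208 (0.803). Among the members themselves Itgav and Itgb1 had an r of 0.8, Itgb2 and Itgb5 one of 0.422, and Itgav and Itgb5 one of 0.057.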

How the data were processed

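RNA of mouse microglia was hybridised to 11 single-colour Agilent arrays. The deposited scanner files hold the intensity of each spot after background subtraction, made by the authors with Feature Extraction 11.5.1.1. The deposited table of the series holds the same intensity values. Repeated spots of a probe were averaged and log2 was taken of the deposited intensity. Arrays were quantile normalised in limma 3.58.1 (R 4.3.3), and figures were drawn with matplotlib. Probes entered when all arrays of any 1 group had them well above background. Probes were named through RefSeq accessions (GRCm38.p6), which gave 36264 matched probes, and were averaged to 19555 genes.

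Limma was fitted with 1 mean per group (7 residual and 2.69 prior degrees of freedom) and two-sided moderated tests. The integrin set, the gene lists and the comparisons were chosen with earlier results of these data known. All members were named, with the 2 largest called rises and falls of each further list and comparison, Itgam and Itgax, and the 3 genes most like each member. Groups and replicate numbers came from the sample titles. Deviations from the group means correlated between newborn arrays of the same number at r 0.344 to 0.366, 0.112 to 0.312 and 0.44 to 0.489. Different numbers correlated at 0.185 to 0.364 within slide 1 and at -0.448 to -0.184 between slides. The ranges within slide 1 overlapped, and number 3 was slide 2, so no pairing beyond the slide was seen. The number served as a block in 1 alternative and to order differences between arrays. Other settings were tried, and 11 arrays limit the precision. The fit was tested on simulated data.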

Additional observations from a re-analysis of the deposited data

How the results depend on the processing

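Over 999 recomputed member differences, 877 kept their direction and call (or, within a slide and with no test, moved by less than the spread between replicates), 62 lost the call, 19 gained one, 19 changed sign and 22 within-slide values moved by more than that spread. Requiring a log2 difference of at least 1 as well left 2 members called for culture and 2 for age. Tukey's test after Benjamini-Hochberg adjustment left 1 for the cytokines. Quantile normalisation within each slide without a slide term, added after seeing the data, left 0 for culture, 0 for the cytokines, 1 for stimulated culture, 0 for age (limma, 1, 3, 4 and 1 at an unadjusted p under 0.05) and 2 in the F test, with Itgb5 at 1.80 for the cytokines (adjusted p 0.195). The age differences moved there, from 1.18 to 0.833 for Itgb5, 1.58 to 1.22 for Itgb2, -0.69 to -1.06 for Itgb1 and -0.69 to -1.02 for Itgal. In that setting the slides have different targets, and their offset stays in the residual spread. With a slide term, also added, the counts were 5, 4, 6, 5 and 7. Averaging repeated spots after log2, also added, left all member counts as they were. Without single arrays the counts were 3 to 6 for culture, 1 to 4 for the cytokines, 5 to 7 for stimulated culture, 3 to 5 for age and 6 to 8 in the F test.

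With replicate number as a block the counts were 5, 3, 6, 4 and 7. The block added Itgb7 for culture (0.53, adjusted p 0.0397) and raised the cytokine count over all genes from 666 to 1196. That count was 1009 with normexp background, 1475 with a slide block, 1482 with the added slide term, 58 without it, 1589 with Tukey's test, 183 with its adjustment, 425 at a log2 difference of at least 1, 334 and 337 without NB_Control replicates 1 and 2, and 304 and 318 without NB_Stim replicates 1 and 2. For culture, stimulated culture and age the main counts of 5811, 6083 and 4436 became 3545, 3619 and 2014 with Tukey's test adjusted, 3159, 3215 and 2407 at a log2 difference of at least 1, and 1423, 1407 and 630 with slides apart and no slide term. For age it was 2923 in a fit of the groups compared and 2456 without A_FACS replicate 1.

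Some signs changed, among members not called. Under 75th percentile scaling Itgav (-0.13) and Itgb2 (-0.16) turned with the cytokines and Itga6 (-0.0842) and Itgav (-0.0137) for age. The brightest probe gave 0.32 for Itga9 in culture. Without a filter on dim probes Itgb7 was -0.34 for culture, against 0.53, and -0.36 for age, against 0.66. With slides normalised apart and no slide term Itga6 and Itgav were -0.20 and -0.20 for age. Without single arrays the culture difference was -0.30 to 0.20 for Itga6 and -0.53 to 0.0107 for Itga9, the cytokine difference -0.0521 to 0.0557 for Itgb1 and -0.0433 to 0.24 for Itgb2, and the stimulated culture difference -0.32 to 0.30 for Itga4 and -0.30 to 0.11 for Itgb7. The causes were not tested. The gene name column of the files repeats the accession, so naming by it was not run.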
